A study of Homo sapiens with 12 samples.

Results

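The genes described here encode the killing machinery of cytotoxic lymphocytes: the granule proteases GZMB and GZMA, the pore-forming protein PRF1, the death ligands FASLG and TNFSF10 (TRAIL), and the receptors of those ligands, FAS, TNFRSF10A and TNFRSF10B. They were taken by symbol from the count table, which held all 8 among its 55782 gene symbols. Of the 8, 7 passed the filter on low counts and entered the fit over 15535 genes, and FASLG did not.

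The RNA came from 2 established human lines grown together: Jurkat LAG3+PD1+, T leukaemia cells that bear both inhibitory receptors by their label, and Raji-PDL1, Burkitt lymphoma B cells that bear the PD1 ligand. In every culture the Raji cells presented staphylococcal enterotoxin D (SED, 100 ng/ml), a superantigen that bridges MHC class II and T cell receptors, and the culture lasted 24 h. The 4 arms were isotype plus isotype, anti-LAG3 (MK4280) plus isotype, anti-PD1 (MK3475) plus isotype, and both checkpoint antibodies together (the combination), each with both antibodies at 1, 0.1 or 0.01 µg/ml. These doses are those of the sample labels, while the treatment text speaks of a dilution that began at 10 µg/ml. Each of the 12 conditions was 1 library from pooled wells, and the 3 libraries of an arm were its 3 doses. The labels name polyA RNA in one field and total RNA in another.

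Library depth ran from 23593973 to 36581754 counts. The T cell marker CD3E lay at 150.6 to 206.2 CPM (counts scaled by the library total) and the B cell marker MS4A1 at 429.6 to 512.6 CPM, so both lines were present in all 12 libraries. PDCD1, which encodes PD1, lay at 181.2 to 228.9 CPM and CD274, which encodes PDL1, at 80.6 to 96.8 CPM, while LAG3 held 0 to 2 counts in every library. Whether an introduced LAG3 copy would be counted by the annotation was not tested. Both lines were read together, and no value below can be assigned to one of them. Of 10 markers of natural killer and cytotoxic cells, which summed to 2.11 to 3.12 CPM, 2 passed the filter: NCAM1 with 29 to 59 counts and CD8B with 5 to 30. Among the others KLRF1 reached at most 2 counts, NCR1, KLRK1 and KLRC1 at most 1 count, and CD8A 2 to 14 counts.

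Cytotoxic lymphocytes kill through 2 routes. In the granule route, perforin opens the target membrane and granzymes enter and cleave proteins inside; granzyme B cuts caspases and BID, and granzyme A is a tryptase with other substrates. In the ligand route, FASLG or TNFSF10 on the lymphocyte binds FAS, TNFRSF10A or TNFRSF10B on the target, and FADD and caspase-8 gather at the receptor. Activated T cells turn on the granzyme and death ligand genes after T cell receptor signalling, in which AP-1, NFAT and EGR factors act.

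The stretch before the start of the gene is shown for GZMB, GZMA and TNFSF10, the 3 genes that the authors' deposited table called at the highest combination dose. The sequences are RefSeq's on GRCh38.p14, 5′ to 3′ on the strand of the gene, from base 250 to base 78 before RefSeq's start. The bases nearer to the start are left out since GENCODE's models of GZMB and TNFSF10 begin further out. Capitals mark matches on either strand to an AP-1 motif (TGANTCA), the NFAT core (GGAAA), an EGR core (GCGNGGG) or a RUNX motif (TGTGGT). The GZMB stretch is chr14:24634268-24634440 (minus strand), that of GZMA chr5:55102396-55102568 (plus strand) and that of TNFSF10 chr3:172523508-172523680 (minus strand).
GZMB: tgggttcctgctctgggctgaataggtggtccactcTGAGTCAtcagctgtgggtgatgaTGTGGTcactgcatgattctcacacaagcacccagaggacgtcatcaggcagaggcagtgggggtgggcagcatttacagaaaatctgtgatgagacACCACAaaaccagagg
GZMA: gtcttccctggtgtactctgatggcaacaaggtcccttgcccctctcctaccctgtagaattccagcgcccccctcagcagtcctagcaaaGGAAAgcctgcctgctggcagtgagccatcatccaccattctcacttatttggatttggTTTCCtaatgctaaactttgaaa
TNFSF10: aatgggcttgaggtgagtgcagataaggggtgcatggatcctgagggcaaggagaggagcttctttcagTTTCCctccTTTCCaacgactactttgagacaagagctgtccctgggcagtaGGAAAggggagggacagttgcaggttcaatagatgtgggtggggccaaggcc

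The GZMB stretch held 1 AP-1 match, whose first base lies 214 bases before the start, and 2 RUNX matches, at 190 and 93 bases. Of 35116 promoter windows of the same 173 bases, 4.5% held an AP-1 match and 7.76% a RUNX match. The GZMA stretch held 2 matches to the NFAT core and the TNFSF10 stretch 3, and 44.2% of all windows held at least 1. No EGR core was found in any of the 3, against 22.3% of all windows. A match describes these letters and not a bound site.

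Levels between genes were compared per length, as RPKM (CPM per 1000 bases of the deposited length). FAS was the most abundant, with a median of 25.3 RPKM over the 12 libraries (range 23.5 to 28.97), followed by GZMA with 19.9 RPKM (17.1 to 37.3), and these ranges overlapped. TNFRSF10B (4.87 RPKM, range 4.27 to 5.44) and TNFRSF10A (4.70 RPKM, range 3.81 to 5.03) came next and overlapped each other. PRF1 had a median of 2.01 RPKM (1.44 to 2.54), TNFSF10 of 0.699 RPKM (0.482 to 1.56), GZMB of 0.608 RPKM (0.390 to 4.70) and FASLG of 0.0402 RPKM (0 to 0.184). Of the 7 tested genes GZMB had the widest range as a fold of the highest over the lowest library, and at its highest reached the range of the TRAIL receptors.

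**Figure D1:**
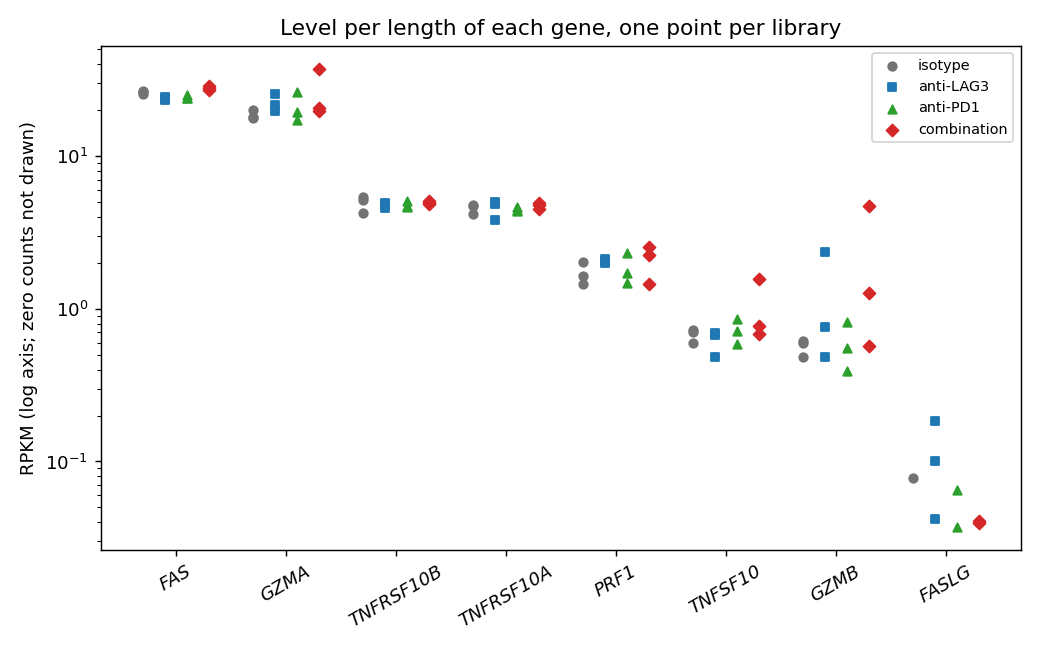
Level per length (RPKM, log axis) of the 8 genes, ordered by median, 1 point for each of the 12 libraries with colour and shape for the arm; libraries with 0 counts are not drawn. GZMB spreads from 0.390 to 4.70 RPKM, while FAS stays between 23.5 and 28.97 RPKM.

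GZMB, granzyme B, rose with the dose of the combination. It was the one gene of the set whose dose slope passed the test against that of isotype (adjusted p under 0.05). GZMB lies on chromosome 14 at 24630954 to 24634267, minus strand (GENCODE v29, GRCh38), and held 530 counts over all libraries, so its values are given as counts. From 1 to 0.1 to 0.01 µg/ml the combination held 171, 48 and 23 GZMB counts. The isotype series held 32, 18 and 23 GZMB counts at the same doses. The combination therefore started at the isotype level at 0.01 µg/ml and lay above every isotype library at both higher doses.

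Anti-LAG3 held 105, 27 and 18 GZMB counts, with the library at 1 µg/ml above all isotype libraries. Anti-PD1 held 33, 19 and 13 GZMB counts. Scaled to depth these were 1.16, 0.780 and 0.551 CPM, the first above and the last below the isotype range of 0.680 to 0.875 CPM. Scaled to depth, the combination reached 6.63 CPM at 1 µg/ml, anti-LAG3 3.32 CPM, anti-PD1 1.16 CPM and isotype 0.875 CPM. At 1 µg/ml the combination library was 7.57-fold above the isotype library of that dose (95% counting interval 5.17 to 11.4), anti-LAG3 3.79-fold (2.53 to 5.82) and anti-PD1 1.33-fold (0.793 to 2.23). The interval of anti-PD1 includes 1, and those of the other arms do not. At 0.1 µg/ml the combination was 2.62-fold above isotype (1.49 to 4.78) and at 0.01 µg/ml 0.951-fold (0.510 to 1.77).

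**Figure D2:**
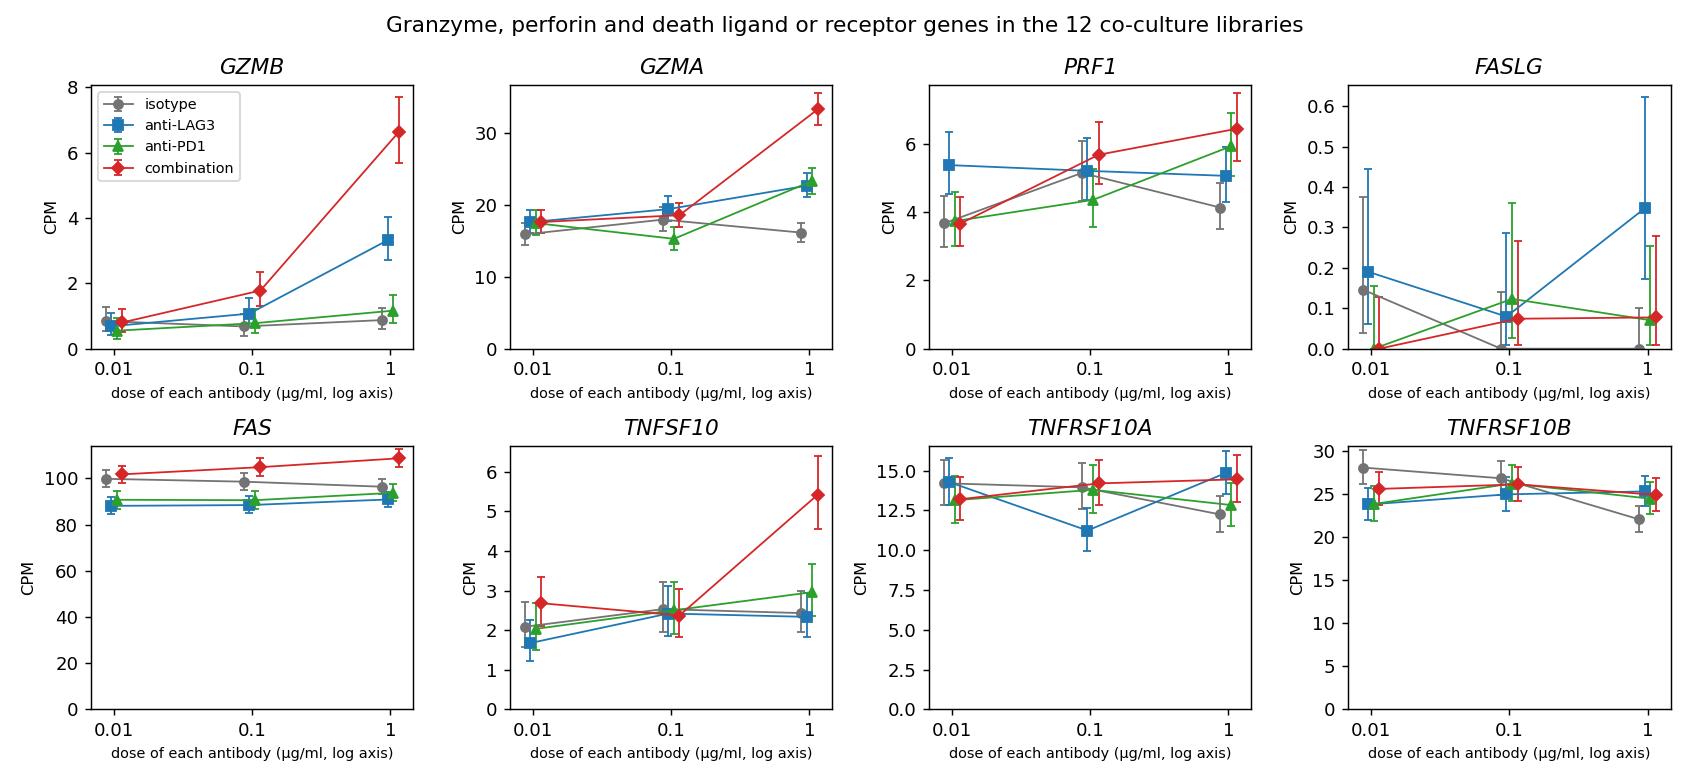
CPM of each gene (vertical axis from 0) by dose of each antibody (µg/ml, log axis) in the 12 libraries, coloured by arm; bars are 95% Poisson counting intervals of single libraries. GZMB, GZMA and TNFSF10 are highest in the combination library at 1 µg/ml, at 6.63, 33.4 and 5.42 CPM.

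The GZMB slope of the combination exceeded that of isotype by 1.54 ± 0.30 log2 per 10-fold dose (adjusted p = 0.00232). It was the only 1 of the 7 tested genes called in this comparison, in which 4.63% of all genes tested were called (1.83% upward). For the 7 tested genes the median slope difference was 0.31, against 0.0061 for all 15535 genes. It was also above that of all genes with anti-LAG3 (0.127 against 0.0053) and anti-PD1 (0.160 against 0.0058). Those medians are the values of TNFRSF10A with anti-LAG3 and of TNFRSF10B with anti-PD1. Taken alone, their slopes there were 0.04 ± 0.07 and 0.01 ± 0.05, while in isotype they were -0.08 ± 0.07 and -0.15 ± 0.05. The medians themselves were not tested. In bulk RNA of 2 lines, more cells of a type and more RNA per cell cannot be told apart. T cell markers moved with the combination dose too: of 23 tested, 5 rose and 5 fell in the same comparison, and of 24 B cell markers none was called. At an unadjusted p under 0.05 (edgeR) there were 14 of the T markers and 8 of the B markers, against 2766 of all 15535 genes. In the combination series alone 2 of the 24 B markers were called, both upward, where 4.27% of all genes were called. The summed T markers lay at 1513 to 1663 CPM in the combination and 1457 to 1522 CPM in isotype, and the summed B markers at 7540 to 7747 CPM and 7182 to 7856 CPM. With the marker difference (T minus B) in the fit, the GZMB slope difference was 1.44 ± 0.33 (adjusted p = 0.0124). The call was lost without the combination library at 1 µg/ml (1.08 ± 0.50, adjusted p = 0.329), without isotype at 1 µg/ml (1.92 ± 0.54, adjusted p = 0.260) or without isotype at 0.01 µg/ml (1.19 ± 0.53, adjusted p = 0.294), and was kept in the other 14 of 17 alternatives. Those 14 include every fit without an anti-LAG3 or anti-PD1 library (1.535 to 1.542), which this difference does not compare. They also include the combination slope without subtracting isotype, which is another quantity. The count of 14 is therefore no measure of how firm the call is.

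For anti-LAG3 the GZMB slope exceeded that of isotype by 1.16 ± 0.31 log2 per 10-fold dose, which did not pass the test over all genes (adjusted p = 0.211). None of the 7 tested genes was called for anti-LAG3 by edgeR or by DESeq2, against 0.0708% of all genes, and 2 (GZMB and TNFRSF10B) had an unadjusted p under 0.05, as had 1242 of the 15535. Taken alone, without subtracting isotype, the anti-LAG3 series had a GZMB slope of 1.23 ± 0.20 that passed (adjusted p = 0.00175), where 0.18% of all genes were called. For anti-PD1 the GZMB slope difference was 0.47 ± 0.34 (adjusted p = 0.671), with none of the 7 genes called by edgeR or DESeq2, against 0.264% of all genes, and 1 (TNFRSF10B) at an unadjusted p under 0.05, as were 1725 of the 15535. The isotype series itself had a GZMB slope of 0.06 ± 0.23. For TNFRSF10B the isotype slope was -0.15 ± 0.05 (edgeR, unadjusted p = 0.00673, adjusted p = 0.168). Taken alone, the TNFRSF10B slope was 0.05 ± 0.05 with anti-LAG3 and 0.01 ± 0.05 with anti-PD1. Its slope differences from isotype thus rest mostly on the isotype series. In the isotype series alone 133 of the 15535 genes were called.

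The arms were also set against each other. The GZMB slope of the combination exceeded that of anti-LAG3 by 0.38 ± 0.28 (adjusted p = 0.701) and that of anti-PD1 by 1.07 ± 0.32 (adjusted p = 0.168), and neither difference passed. Anti-LAG3 exceeded anti-PD1 by 0.69 ± 0.33 (adjusted p = 0.911), a comparison added after the values were seen. No tested gene of the set was called in these 3 comparisons, in which 0.766%, 0.644% and 0% of all genes were called (edgeR). DESeq2 called none of the set either, and 1, 1 and 2 of the 7 had an unadjusted p under 0.05, as had 1631, 1550 and 845 of the 15535. A missed threshold in 3 libraries an arm does not show that the arms act alike on GZMB.

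As averages over the 3 doses, the GZMB difference from isotype was 1.76 ± 0.43 log2 for the combination (adjusted p = 0.260), 0.99 ± 0.45 for anti-LAG3 (adjusted p = 0.206) and 0.04 ± 0.52 for anti-PD1 (adjusted p = 0.981). With 1 library left out the GZMB arm mean ran from 0.99 to 2.26 for the combination and from 0.21 to 1.49 for anti-LAG3. Each was called in 3 of 16 alternatives, with a lowest adjusted p of 3.67e-09 and 0.00500, both without the filter. The authors' deposited tables each set 1 treated library against 3 isotype libraries of 3 doses, so the treated condition has no replicate there. In the authors' deposited table for the combination at 1 µg/ml, GZMB stood 3.06 ± 0.42 log2 above the 3 isotype libraries (adjusted p = 4.33e-11). The authors' deposited table for anti-LAG3 at 1 µg/ml gave GZMB 2.05 ± 0.49 with p = 2.66e-05 and no adjusted p. In the authors' deposited table for the combination at 0.1 µg/ml, GZMB stood 1.14 ± 0.58 higher (p = 0.0483), with an adjusted p of 1.00.

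**Figure D3:**
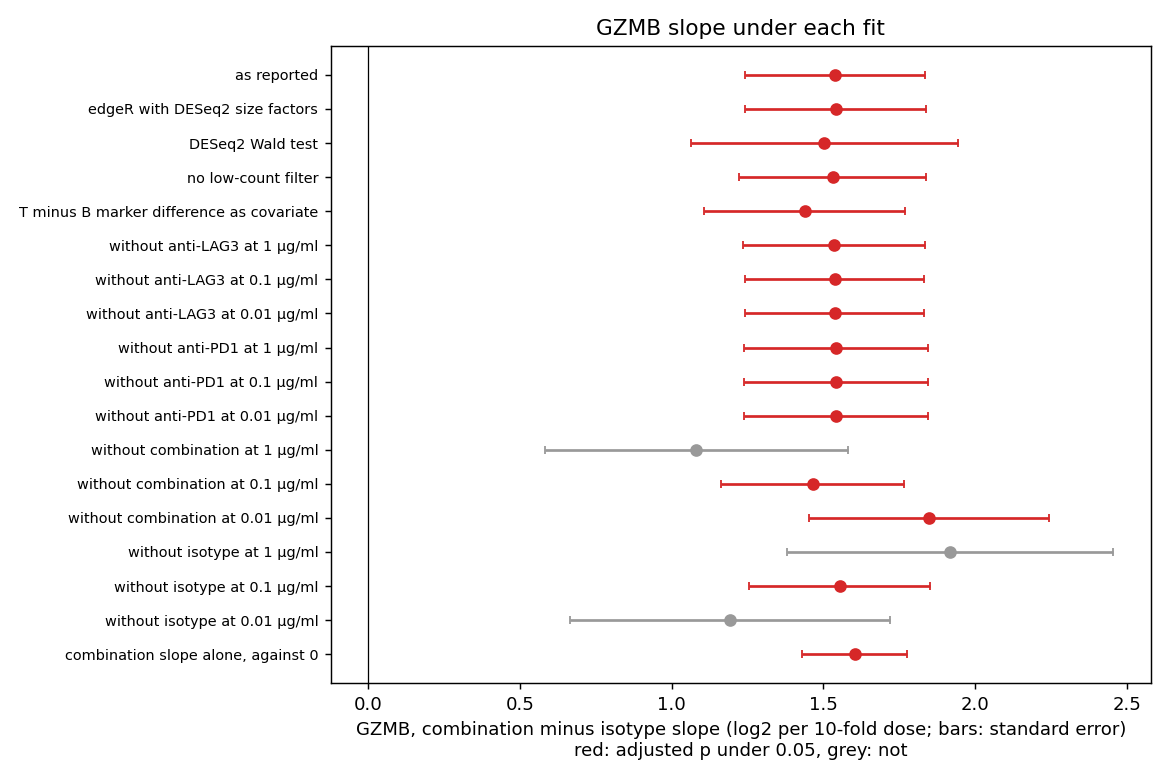
GZMB slope difference of the combination from isotype (horizontal axis, log2 per 10-fold dose, bars standard errors) in the fit of the text and under each alternative; the last line is the combination slope alone. All values lie above 0, between 1.08 and 1.92, and the 3 grey ones, which leave out the combination at 1 µg/ml or isotype at 1 or 0.01 µg/ml, did not pass.

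GZMH, a neighbour of GZMB with a similar sequence whose reads the counting could have mixed with it, held 7 to 26 counts. In the combination GZMH stood at 7, 8 and 15 counts from the highest to the lowest dose, and in isotype at 26, 25 and 23. The GZMH slope difference was -0.39 ± 0.43 (adjusted p = 0.702). The antisense gene AL136018.1 overlaps GZMB on the opposite strand, and without a known strand setting its reads cannot be told from those of GZMB.

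GZMA, granzyme A, stood out in 1 library, the combination at 1 µg/ml. It lies on chromosome 5 at 55102648 to 55110252, plus strand. The combination had 33.4, 18.6 and 17.7 CPM of GZMA from the highest to the lowest dose, and isotype 16.2, 18.0 and 15.9 CPM. Anti-LAG3 had 22.7, 19.5 and 17.6 CPM, and anti-PD1 23.4, 15.3 and 17.5 CPM. All 3 antibody arms had their highest GZMA level at 1 µg/ml, above every isotype library, while their lower doses lay between 15.3 and 19.5 CPM.

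At 1 µg/ml the GZMA fold over the isotype library was 2.06 for the combination (counting interval 1.86 to 2.29), 1.40 for anti-LAG3 (1.26 to 1.57) and 1.45 for anti-PD1 (1.29 to 1.62). None of these 3 counting intervals includes 1. The slope difference of the combination from isotype was 0.45 ± 0.19 for GZMA and did not pass (adjusted p = 0.278). It passed in 6 of 17 alternatives, among them no filter on low counts (0.44 ± 0.09, adjusted p = 0.000183) and each fit that left out an anti-PD1 library (adjusted p = 0.0316 to 0.0325). Without the combination library at 1 µg/ml the GZMA slope difference was 0.04 ± 0.19 (adjusted p = 0.952). In the authors' deposited table for the combination at 1 µg/ml, GZMA stood 1.02 ± 0.15 log2 above isotype (adjusted p = 4.34e-09).

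PRF1, perforin, overlapped between the arms. It lies on chromosome 10 at 70597348 to 70602775, minus strand. From the highest to the lowest dose PRF1 had 6.43, 5.67 and 3.66 CPM in the combination and 4.13, 5.14 and 3.66 CPM in isotype. Anti-PD1 had 5.92, 4.35 and 3.73 CPM, and anti-LAG3 5.06, 5.20 and 5.37 CPM. The combination and anti-PD1 series were ordered by dose, and the anti-LAG3 series was flat. The PRF1 slope of the combination exceeded that of isotype by 0.31 ± 0.16 (adjusted p = 0.337) and that of anti-LAG3 by 0.44 ± 0.16 (adjusted p = 0.280). Leaving out the isotype library at 1 µg/ml gave a PRF1 difference of -0.08, leaving out the one at 0.01 µg/ml gave 0.67, and neither passed (adjusted p = 0.993 and 0.171). Taken alone the combination slope of PRF1 was 0.41 ± 0.12 and passed (adjusted p = 0.0433). At 1 µg/ml the PRF1 fold of the combination over isotype was 1.56 (1.24 to 1.96), while that of GZMB was 7.57 (5.17 to 11.4), and these counting intervals did not overlap.

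FASLG, the ligand of FAS, was close to the limit of detection. It lies on chromosome 1 at 172659018 to 172666874, plus strand, and held 31 counts in all 12 libraries together. The isotype libraries held 0, 0 and 4 FASLG counts from the highest to the lowest dose, anti-LAG3 11, 2 and 5, anti-PD1 2, 3 and 0, and the combination 2, 2 and 0. A library without counts could still hold up to 3, or 0.0820 to 0.127 CPM, and 9 of the 12 libraries were at or under 3 counts. Anti-LAG3 held 18 of the 31 counts. Without the filter the anti-LAG3 arm mean of FASLG was 2.07 ± 0.94 log2 above isotype and did not pass (adjusted p = 0.286). The FASLG slopes against isotype, without the filter, had an unadjusted p of 0.0130 (combination), 0.0144 (anti-LAG3) and 0.0202 (anti-PD1), and none passed (edgeR, adjusted p = 0.265, 0.830 and 0.614). FASLG is not listed in the authors' deposited tables.

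TNFSF10, the ligand TRAIL, was like GZMA high in 1 library. It lies on chromosome 3 at 172505508 to 172523507, minus strand, and held 44 to 140 counts. The combination had 5.42, 2.37 and 2.68 CPM of TNFSF10 from the highest to the lowest dose, and isotype 2.43, 2.53 and 2.09 CPM. Anti-LAG3 had 2.34, 2.42 and 1.68 CPM, and anti-PD1 2.96, 2.504 and 2.03 CPM. The other 11 libraries thus lay between 1.68 and 2.96 CPM. At 1 µg/ml the combination was 2.23-fold above isotype (1.70 to 2.94), anti-PD1 1.22-fold (0.893 to 1.66) and anti-LAG3 0.961-fold (0.696 to 1.32).

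The TNFSF10 slope difference of the combination from isotype was 0.42 ± 0.22 and did not pass (adjusted p = 0.334). The combination slope taken alone was 0.55 ± 0.15 and passed (adjusted p = 0.0323). With GZMB and PRF1 this made 3 of the 7 tested genes called in the combination series alone, where 4.27% of all genes were called. The TNFSF10 slope difference was -0.31 without the combination library at 1 µg/ml, 1.08 without that at 0.01 µg/ml and 0.19 ± 0.21 in the fit that holds the marker difference (adjusted p = 0.757, 0.150 and 0.701). In the authors' deposited table for the combination at 1 µg/ml, TNFSF10 stood 1.23 ± 0.34 log2 above isotype (adjusted p = 0.0242). With GZMB and GZMA it made up the 3 genes of the set called in that table, where 1.73% of all genes with an adjusted p were called, and the authors' tables for the other 8 libraries called none of the set. In those 8 tables the share of all genes called was, from the highest to the lowest dose, 2.58%, 2.84% and 0.195% for anti-LAG3, 0.443%, 0% and 1.45% for anti-PD1, and 0.199% and 0% for the 2 lower doses of the combination, and some of the set had no adjusted p there.

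**Figure D4:**
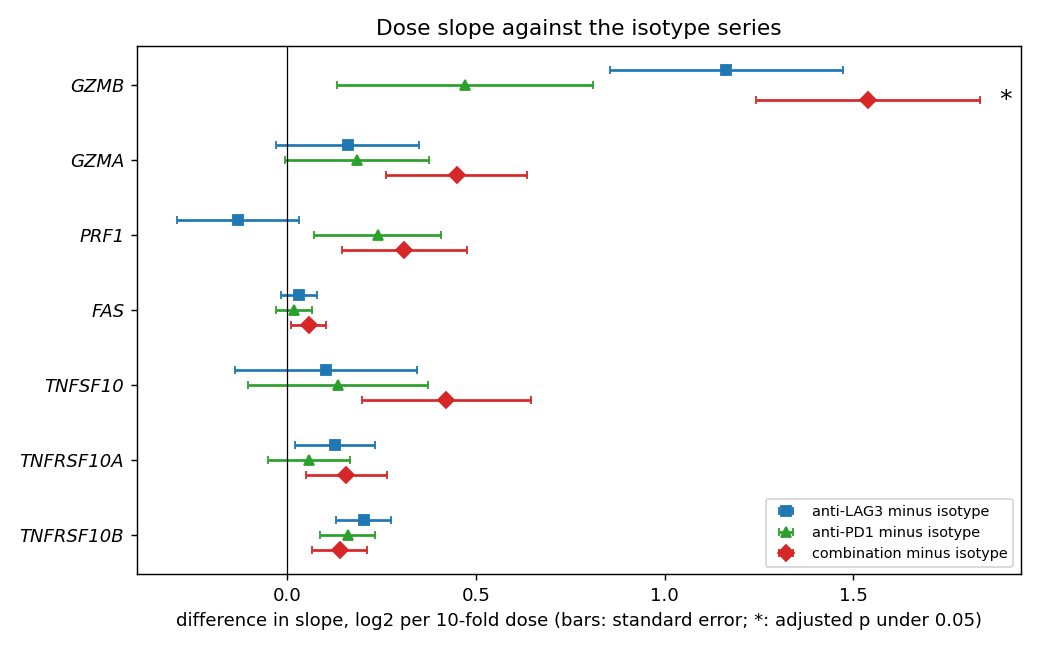
Difference of each arm's dose slope from that of isotype (log2 per 10-fold dose, bars standard errors) for the 7 tested genes, with a star where the adjusted p was under 0.05. Only GZMB in the combination has a star, at 1.54.

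FAS, the receptor of FASLG, was the most evenly expressed gene of the set, and its arms lay a small step apart in CPM. It lies on chromosome 10 at 88990582 to 89015785, plus strand. Isotype had 96.4, 98.5 and 99.8 CPM of FAS from the highest to the lowest dose, anti-LAG3 90.8, 88.4 and 88.1 CPM, anti-PD1 93.7, 90.5 and 90.7 CPM, and the combination 108.6, 104.8 and 101.7 CPM. All 3 anti-LAG3 and all 3 anti-PD1 libraries lay below the isotype range, and all 3 combination libraries lay above it. Against the isotype library of the same dose, the FAS fold was 1.02 for the combination at 0.01 µg/ml (counting interval 0.967 to 1.07). For anti-PD1 at 1 µg/ml it was 0.973 (0.925 to 1.02), and both of these intervals include 1. Over all tested genes, 12.8% lay below isotype in this way with anti-LAG3, 10.4% with anti-PD1, and 4.36% above it with the combination.

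The FAS arm mean of anti-LAG3 fell by 0.14 on the log2 scale (-0.14 ± 0.04, adjusted p = 0.0453), the 1 call among the 7 tested genes, where 10.0% of all genes were called (5.16% downward). The difference was -0.10 ± 0.04 for anti-PD1 (adjusted p = 0.242) and 0.10 ± 0.04 for the combination (adjusted p = 0.673), and no tested gene of the set was called there by edgeR or DESeq2, against 3.82% and 0.00644% of all genes. At an unadjusted p under 0.05 there were 1 for anti-PD1 and 4 for the combination, against 2856 and 1037 of all 15535 genes. The anti-LAG3 call held in 6 of 16 alternatives, with values from -0.15 to -0.12. The authors' deposited tables called FAS at no dose of anti-LAG3 (adjusted p = 0.686, 0.547 and 0.623 from the highest to the lowest dose). In the anti-LAG3 libraries the summed T markers lay at 1613 to 1704 CPM, against 1457 to 1522 CPM in isotype, and the summed B markers at 7004 to 7242 CPM, against 7182 to 7856 CPM. With the marker difference (T minus B) in the fit, the FAS difference was -0.14 ± 0.08 (adjusted p = 0.394). ACTA2 overlaps FAS on the opposite strand and held 105 to 224 counts, against 2140 to 3525 for FAS.

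TNFRSF10A and TNFRSF10B, the death receptors for TRAIL, were called in no comparison and lie near each other on the minus strand of chromosome 8. From the highest to the lowest dose TNFRSF10A had 14.5, 14.2 and 13.2 CPM in the combination, 12.2, 13.9 and 14.2 CPM in isotype, 14.8, 11.2 and 14.3 CPM with anti-LAG3, and 12.8, 13.8 and 13.1 CPM with anti-PD1. TNFRSF10B had 24.9, 26.1 and 25.6 CPM in the combination, 22.03, 26.8 and 28.0 CPM in isotype, 25.3, 24.9 and 23.8 CPM with anti-LAG3, and 24.4, 26.2 and 23.8 CPM with anti-PD1. Every antibody arm overlapped isotype in both genes. The slope difference of the combination from isotype was 0.16 ± 0.11 for TNFRSF10A (adjusted p = 0.475) and 0.14 ± 0.07 for TNFRSF10B (adjusted p = 0.327). RHOBTB2 overlaps TNFRSF10B on the opposite strand and held 1547 to 2162 counts, and antisense genes overlap both receptors.

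Counted by order alone, 5 of the 7 tested genes were higher at each step of the combination dose (GZMB, GZMA, PRF1, FAS and TNFRSF10A), as were 18.8% of all genes. The same held for 4 with anti-LAG3 (18.5% of all genes), 3 with anti-PD1 (17.1%) and 0 in isotype (14.9%). GZMB was ordered by dose in all 3 antibody arms. This count takes no account of the size of a step.

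Of 15 other granule and exocytosis genes, 14 were tested, and 1 was called with a combination slope above that of isotype, against 4.63% of all genes called (1.83% upward). It was SRGN, which encodes serglycin, the proteoglycan that binds granzymes in the granule. SRGN had 41.4, 30.9 and 24.6 CPM in the combination from the highest to the lowest dose and 26.8, 25.5 and 24.6 CPM in isotype, and its slope difference was 0.30 ± 0.07 (adjusted p = 0.0188). The median slope difference of the 14 was -0.0026. GNLY, which encodes the granule protein granulysin, did not pass the filter. It held 27, 13 and 4 counts in the combination and 0, 2 and 4 in isotype, with 10, 9 and 4 in anti-PD1 and 2, 2 and 3 in anti-LAG3, and was singled out after these values were seen.

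Of 15 other death ligands and receptors of the TNF family, 8 were tested and 1 was called with a combination slope above that of isotype, where 4.63% of all genes were called. It was TNFRSF1B, the second receptor of TNF. TNFRSF1B had 15.0, 8.34 and 7.77 CPM in the combination and 6.40, 6.88 and 8.57 CPM in isotype. Its slope difference was 0.68 ± 0.13 (adjusted p = 0.00159), and the median of the 8 was 0.014.

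All 18 listed genes of death receptor signalling were tested. The combination slope was called above that of isotype in 1 and below it in 3, where 4.63% of all genes were called. Taken alone, the combination slope was called upward in 1 of the 18 and downward in 0, where 4.27% of all genes were called. In the isotype series alone 0 of the 18 were called and 8 had an unadjusted p under 0.05 (edgeR), as had 2128 of all 15535 genes. The 3 with a slope below that of isotype were BID, a target of granzyme B and caspase-8 (-0.22 ± 0.06, adjusted p = 0.0207), FAIM, an inhibitor of FAS-induced apoptosis (-0.37 ± 0.10, adjusted p = 0.0334), and DAXX, a FAS-binding and chromatin protein (-0.17 ± 0.05, adjusted p = 0.0413). In FAIM the series had opposite orders, with 13.8, 10.8 and 10.0 CPM in isotype and 10.7, 12.2 and 12.5 CPM in the combination. The median of the 18 was 0.0049.

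All 14 transcription factors described as acting on GZMB, PRF1 or FASLG were tested. The combination slope was called above that of isotype in 3 and below it in none, where 4.63% of all genes were called. Taken alone, the combination slope was called upward in 3 of the 14 and downward in 1, where 4.27% of all genes were called. EGR3, a zinc finger factor of T cell receptor signalling, had 17.0, 6.34 and 1.46 CPM in the combination, 10.7, 4.25 and 1.87 CPM with anti-LAG3, 4.94, 2.46 and 1.65 CPM with anti-PD1, and 2.00, 2.00 and 1.94 CPM in isotype. Its order of arms at 1 µg/ml was that of GZMB. The EGR3 slope difference from isotype was 1.65 ± 0.19 for the combination (adjusted p = 3.92e-06) and 1.23 ± 0.19 for anti-LAG3 (adjusted p = 0.00259), the 1 called gene of the 4 lists in the anti-LAG3 slope comparison.

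EGR2, its close relative, had a slope difference of 1.13 ± 0.21 in the combination (adjusted p = 0.00132) and NFATC1, an NFAT family member, of 0.27 ± 0.06 (adjusted p = 0.0117). NFATC1 had 92.0, 69.3 and 62.6 CPM in the combination and 60.3 to 61.4 CPM in isotype. It was the 1 gene of the 4 lists whose combination slope also exceeded that of anti-LAG3 (0.26 ± 0.06, adjusted p = 0.0451). Against anti-PD1 the combination slope was higher for EGR2, EGR3, NFATC1, SRGN and TNFRSF1B (0.30 to 1.02, adjusted p = 0.0166 to 0.0495). TBX21 and EOMES, T-box factors of cytotoxic cells, were not called, with 4 to 21 counts and 7.59 to 10.6 CPM. The median of the 14 was 0.073.

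**Figure D5:**
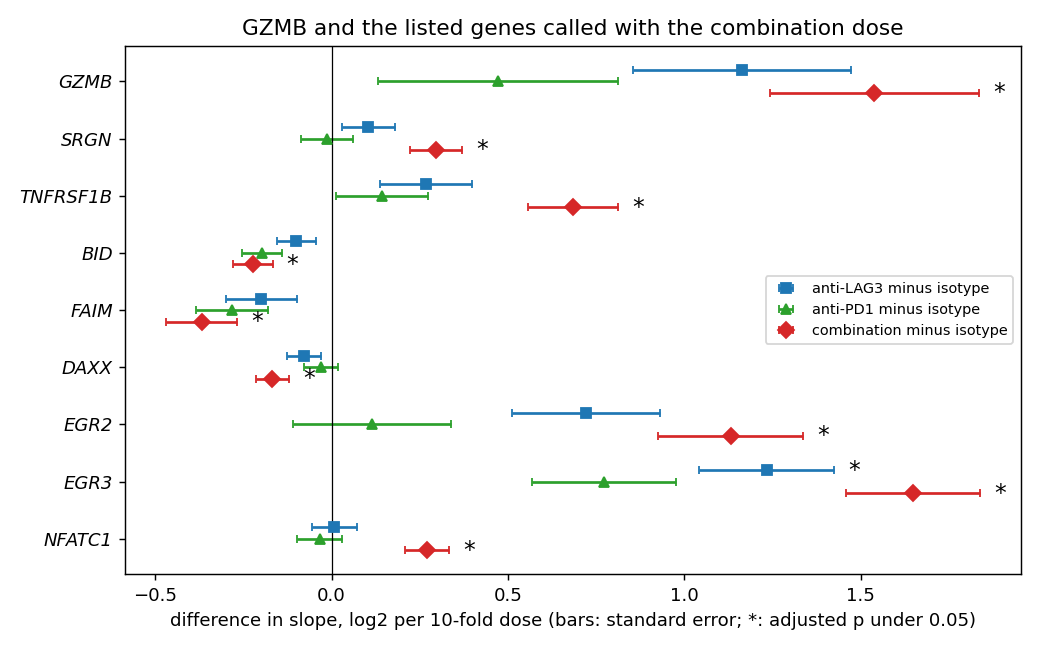
Difference of each arm's dose slope from that of isotype (log2 per 10-fold dose, bars standard errors) for GZMB and 8 of the genes of the 4 lists called with the combination, with a star where the adjusted p was under 0.05. EGR3 (1.65) and GZMB (1.54) have the steepest combination slopes, and with anti-LAG3 EGR3 alone has a star.

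Averaged over doses, the anti-LAG3 arm differed from isotype in 4 of the 18 signalling genes (2 higher, 2 lower), 2 of 8 of the TNF family (both higher), 1 of 14 granule genes (lower) and 0 of 14 transcription factors (edgeR, 4 at an unadjusted p under 0.05), where 10.0% of all genes were called. Anti-PD1 differed in 2 of the 18 (1 higher, 1 lower), 2 of 8 (both higher) and none of the granule genes or factors (2 and 0 at an unadjusted p under 0.05), where 3.82% of all genes were called. With the marker difference in the fit, the anti-LAG3 arm-mean calls over all genes went from 1560 to 217. With anti-LAG3, FADD, the adaptor of the death receptors, rose by 0.38 ± 0.07 log2 (adjusted p = 0.00176), TRADD by 0.33 ± 0.10 (adjusted p = 0.0307) and TNFRSF1A, the first TNF receptor, by 0.28 ± 0.08 (adjusted p = 0.0294), as did LTB (0.18 ± 0.05, adjusted p = 0.0183). XIAP (-0.20 ± 0.06, adjusted p = 0.0371) and BIRC3 (-0.17 ± 0.05, adjusted p = 0.0169), inhibitors of apoptosis, and SERPINB9, the inhibitor of granzyme B (-0.22 ± 0.06, adjusted p = 0.0172), fell. With anti-PD1, FADD (0.29 ± 0.07, adjusted p = 0.0231), TNFRSF1A (0.32 ± 0.08, adjusted p = 0.0331) and TNFRSF14 (0.25 ± 0.06, adjusted p = 0.0250) rose and BIRC3 fell (-0.17 ± 0.05, adjusted p = 0.0404). No gene of the 4 lists was called in the combination arm mean, where edgeR called 1 gene of all 15535. These arm means share the isotype libraries, and the marker ranges of anti-LAG3 and isotype are those given above for FAS. With anti-PD1 the summed T markers lay at 1481 to 1633 CPM and the summed B markers at 7241 to 7528 CPM.

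Across the 12 libraries, log2 CPM of GZMB was most like that of FOS (Pearson r 0.977), NR4A3 (0.976) and EGR2 (0.976). GZMA was most like NDFIP2 (0.969), RTKN2 (0.966) and RAB27A (0.963), and TNFSF10 most like SLC2A3 (0.919), NLRP3 (0.912) and STAC3 (0.910). PRF1 was most like GSTA4 (0.903), RBM7 (0.889) and SNRK (0.887), and FAS most like CEBPZ (0.972), ZFP36L1 (0.947) and OXR1 (0.935). The best matches were NFKBIB (0.877), PPP1R32 (0.872) and RAB11FIP4 (0.852) for TNFRSF10A, and EIF4A2 (0.960), ANKRD10-IT1 (0.940) and ADAM28 (0.926) for TNFRSF10B. Levels were low for PPP1R32 (0.159 to 0.632 CPM), NLRP3 (0.457 to 2.17 CPM), ANKRD10-IT1 (0.683 to 2.53 CPM) and FOS (0.906 to 5.04 CPM). Within the set, GZMB and GZMA had r 0.865, GZMA and TNFSF10 0.804, GZMB and PRF1 0.635, and GZMB and FAS 0.51. These are descriptions over 12 libraries that share arms and doses, and the combination library at 1 µg/ml is far from the others in GZMB, GZMA and TNFSF10.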

How the data were processed

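The authors deposited raw read counts for 55782 gene symbols with a length in base pairs for each, and, for each of 9 antibody-treated libraries against all 3 isotype libraries, log2 fold changes with p-values and adjusted p-values. Trimmomatic 0.36, STAR 2.5.2b, featureCounts of Subread 1.5.2, DESeq2 and the build GRCh38 are named per the submitters' processing notes, without order or settings. Annotation release, strandedness and the handling of reads that fit several genes: not given in the sources used here, so genes with near-identical copies or an overlapping partner are uncertain. The analysis left aside 4 count columns that match no labelled sample, and 36 per-sample columns of the comparison tables.

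Samples were grouped by the treatment label. CPM is a count scaled by the library total, and RPKM is CPM per 1000 bases of the deposited length. Genes were kept by filterByExpr at a minimum count of 10 (15535 kept) and were tested in R 4.3.3 with edgeR 4.0.16 (quasi-likelihood F test, robust, TMM scaling). The slope model gave each arm a level and a slope on log10 dose, with 4 residual degrees of freedom. The arm-mean model held arm and dose as factors, with 6 residual degrees of freedom, so that unequal dose responses of the arms add to its spread. All 12 libraries entered each fit, and Benjamini-Hochberg adjustment ran over the whole table. Genes with an adjusted p under 0.05 were called. Every adjusted p in the text comes from edgeR's quasi-likelihood test except where a sentence names the authors' deposited table or tables. The GZMB value given for the DESeq2 Wald test is the other exception, and ± gives standard errors. The scripts were tested on simulated data.

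No label names one library as the replicate of another, so p-values measure only how these libraries scatter, which may be technical. All comparisons with isotype share the same 3 isotype libraries. Intervals at 95% and the limit of 3 counts that a count of 0 allows cover counting error only: reads were amplified and carry no molecular identifiers.

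The 8 genes and the lists beside them were chosen with earlier results of these data known. All 8 are always named, with raw counts where any library held few. From the other lists the genes that passed the test in a comparison with isotype are named, and for each tested gene the 3 genes with the highest Pearson correlation. A gene of these lists is not reported here. Alternatives were DESeq2 1.42.0 (test, or size factors only), no filter on low counts, a marker covariate (mean log2 CPM of T markers minus that of B markers), the slope without subtracting isotype, and leaving out each library.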

Additional observations from a re-analysis of the deposited data

How the results depend on the processing

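No paired analysis was possible because the labels give no replicate numbers that arms share; the arm-mean fit held the shared dose as a factor. Counts of genes called over the whole table moved by over 1.5 times as follows. For the combination slope against isotype, 719 genes were called, 290 with DESeq2, and 34 to 955 when 1 library was left out. For anti-LAG3, 11 were called, 71 without the filter, 19 with the marker covariate, 28 without subtracting isotype, and 1 to 24 with 1 library left out. For anti-PD1, 41 were called, 196 without the filter, 0 with the covariate (edgeR), and 0 to 122 with 1 library left out. The combination against anti-LAG3 had 119 calls, 57 with DESeq2, 207 without the filter, 63 with the covariate and 8 to 181 with 1 library left out. Against anti-PD1 it had 100 calls, 58 with DESeq2, 170 without the filter, 13 with the covariate and 6 to 147 with 1 library left out. The combination arm mean had 1 call, 18 with DESeq2, 145 without the filter, 0 with the covariate and 0 to 271 with 1 library left out. The anti-LAG3 arm mean had 1560 calls, 217 with the covariate and 424 to 2045 with 1 library left out, and the anti-PD1 arm mean 594 calls and 0 to 1044 with 1 library left out. The T minus B marker difference from isotype was 0.19 log2 with anti-LAG3 (exact permutation p = 0.1, the smallest that 3 against 3 allow) and 0.081 with the combination (exact permutation p = 0.2); by the median marker it was 0.247 and 0.242.

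The combination slope of GZMB was called in 14 of 17 alternatives and that of GZMA in 6 of 17, and the anti-LAG3 arm mean of FAS in 6 of 16. The 17 include fits without an anti-LAG3 or anti-PD1 library, which the combination slope against isotype does not compare. No called value changed sign in the alternatives run for the 8 genes and the lists. The GZMB arm means of the combination and of anti-LAG3, not called in the fit of the text, were each called in 3 of 16 alternatives. The cause of these changes was not tested. With 1 library per condition, GZMA and TNFSF10 at 1 µg/ml of the combination rest on 1 library, FASLG lies near the limit of 3 counts, and no effect can be assigned to one of the lines.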
